A study of Mus musculus with 40 samples.

Results

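The cytosolic ribosome of the mouse liver was described here through 77 genes for its proteins, 46 of the large subunit and 31 of the small subunit, among 32544 genes in the count table. A gene was a member if its symbol was Rpl or Rps followed by a number and at most 1 of the letters a, l, x or y, or if it was Rplp0, Rplp1, Rplp2 or Rpsa, and if its counts over the 40 lane files summed to at least 200. Symbols of that form numbered 82, and 5 fell below the minimum, namely Rpl10l with 0 counts, Rpl6l with 4, Rpl39l with 6, Rpl3l with 15 and Rps12 with 177. The member nearest to the minimum was Rpl12 with 2973 counts. All 77 members passed the filter on low counts. The annotation lists 76 of them as protein-coding and Rps4l as a transcribed processed pseudogene.

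The livers came from germ-free C57BL/6 mice, which have no gut microbes, at postnatal day 64. The mice had eaten a control diet or a Western diet and had been dosed for 6 weeks with delta-valerobetaine (VB), a trimethylated compound that gut bacteria make, or with vehicle. The 4 groups were control diet with vehicle, control diet with VB, Western diet with vehicle and Western diet with VB, with 5 mice in each. The comparisons asked what VB did on each diet, what the diet did with and without VB, and whether the effect of VB differed between diets.

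Ribosomal proteins bind ribosomal RNA in the nucleolus and form the subunits that read messenger RNA and join amino acids. Cells make them in matched amounts, and their messenger RNAs share a run of pyrimidines at the very start, the 5′ terminal oligopyrimidine (TOP) tract, through which the TOR kinase and the RNA-binding protein LARP1 set how much of each is stored or translated. In liver, ribosome production follows feeding and the daily cycle.

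Because the TOP tract sits at the start, start sites are shown for the 4 called members that have an entry in the RefSeq promoter table (GRCm38.p6). They are also shown for Rps6, the small subunit protein that S6 kinase phosphorylates, and for Rps27l, the member with the highest level per kb of transcript. Another listed start of Rps27l, at chr9:66946413 with a longest run of 4 bases, is not shown. Each line gives 15 bases before and 15 bases from the annotated start on the coding strand, with the longest run of C and T in capitals.
Rps9, chr7:3704026-3704055, plus strand: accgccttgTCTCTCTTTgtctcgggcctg
Rps4x, chrX:102189377-102189406, minus strand: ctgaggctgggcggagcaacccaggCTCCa
Rpl4, chr9:64173372-64173401, plus strand: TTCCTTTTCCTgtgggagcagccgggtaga
Rplp0, chr5:115559452-115559481, plus strand: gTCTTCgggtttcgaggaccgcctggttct
Rps6, chr4:86857353-86857382, minus strand: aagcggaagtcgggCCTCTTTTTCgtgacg
Rps27l, chr9:66946071-66946100, plus strand: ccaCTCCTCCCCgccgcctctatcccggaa
Of these windows, that of Rps6 had a C followed by at least 4 pyrimidines exactly at the annotated start. In Rps9 and Rpl4 the longest runs, 9 and 11 bases, began 6 and 15 bases before it, and in Rps4x the longest run was 4 bases.

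The table held 67 start sites for 56 of the 77 members. A C followed by at least 4 pyrimidines stood at 13 of those 67 starts (19.4%), against 823 of 32851 starts of all genes (2.51%). In windows of 250 bases before and 50 after the start, searched on both strands, CCGGAA was in 49.3% of member windows and in 14.9% of all windows. GGGCGG was in 61.2% of member windows and 35.7% of all, AAGATGGC in 10.4% and 2.75%, CACGTG in 11.9% and 7.15%, and TATAAA in 8.96% and 13.6%. No searched word contains another, and a match is a description of the sequence.

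Sequencing depth per mouse was 16315342 to 24566686 counts, and the members took 74145 to 151203 of them. The deposited table gives the ribosomal protein genes a small share of the liver's counts, 0.454% to 0.787%. Hepatocyte markers dominated in all groups: the 8 listed genes, among them Alb and Apoa1, summed to 36302 to 58317 CPM (counts relative to library size after TMM scaling), and markers of testis were at 0 in every mouse. In whole liver, fewer cells of a type and less RNA per cell cannot be told apart.

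Levels per length, the mean CPM over the 20 mice divided by transcript length in kb, ran from 5.88 for Rpl5 to 391 for Rps27l, with a median of 94.8. Rps27l, a paralog of Rps27 that p53 is known to induce, was followed by Rps2 at 286, Rpl41 at 271 and Rps29 at 251. Rpl12 at 6.00, Rps20 at 9.28, Rps4l at 19 and Rpl27a at 23.4 stood above Rpl5 at the low end. The transcript used for Rps20 was 3706 bases long and that for Rpl5 2045 bases, which lowers their level per kb.

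Ribosomal protein genes have many processed pseudogenes, so shared sequence was measured beside the level. In the median member, 60% of the 50-base words of the transcript also occurred in another annotated gene, with a range from 0% to 95.1%. Rps2 shared words with 71 other genes, and Rpl3 shared 85.6% of its words, with 26 others. Rpl8 shared 7.86%, Rps4l 14.9%, Rpl4 16.5% and Rps9 33.0%, each with 1 other gene. The 9 members with under 25% shared had a median change by diet in vehicle mice of -0.25 (log2), the 26 with over 75% shared one of -0.23, and the other 42 one of -0.20.

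**Figure D1:**
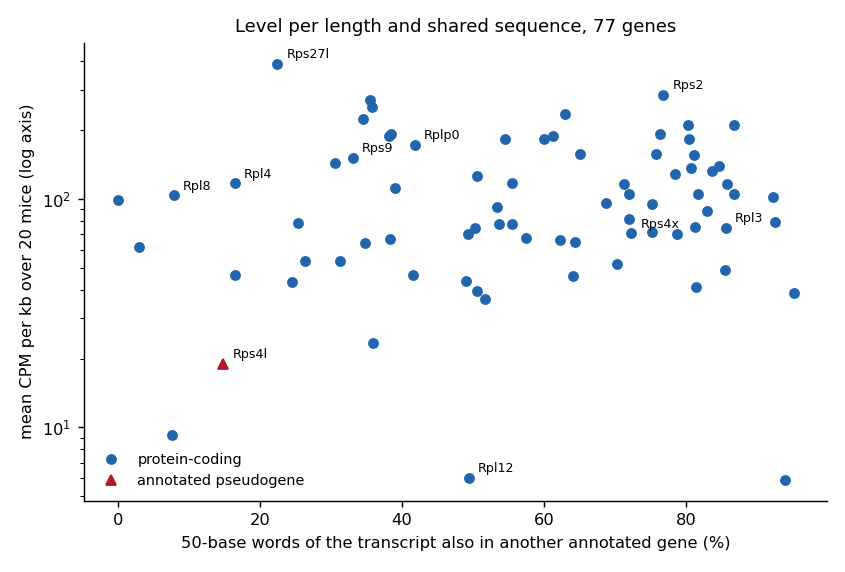
Level per length of the 77 genes (vertical axis, mean CPM per kb over 20 mice, log scale) against the share of their 50-base words found in another annotated gene (horizontal axis, %). Each point is a gene and the triangle is Rps4l, the annotated pseudogene. Levels ran from 9.28 to 391 CPM per kb under 25% shared, from 6.00 to 271 at 25 to 75%, and from 5.88 to 286 over 75%. Rps27l was highest at 391 CPM per kb.

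The family as a whole was highest in control diet vehicle mice and varied most among Western diet vehicle mice. The share of counts in the 5 control diet vehicle mice was 0.787, 0.650, 0.713, 0.622 and 0.571% (mean 0.669 ± 0.0838, SD, n = 5). In control diet VB mice it was 0.632, 0.582, 0.579, 0.655 and 0.561% (0.602 ± 0.0397), and in Western diet VB mice 0.517, 0.537, 0.531, 0.612 and 0.50% (0.539 ± 0.0432). The Western diet vehicle mice stood at 0.572, 0.519, 0.454, 0.690 and 0.470% (0.541 ± 0.0953). Mouse 4 of that group lay above all the others of its group and above every VB mouse, and mice 3 and 5 were the lowest of the 20. The order of the group means depended on the abundant Mup genes: with these left out the mean was 0.609% in Western diet vehicle mice, 0.651% in control diet VB mice, 0.677% in Western diet VB mice and 0.754% in control diet vehicle mice.

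The family level, the median log2 CPM over the 77 members, was lowest and highest in the same group, Western diet vehicle. It was 6.53, 6.17, 6.41, 6.15 and 6.00 in control diet vehicle mice and 5.99, 5.86, 5.64, 6.63 and 5.62 in Western diet vehicle mice. VB mice lay inside that span, at 5.91 to 6.14 on the control diet and 5.94 to 6.34 on the Western diet. Western diet vehicle mouse 4 had the highest value of 54 of the 77 members among the 20 mice, and control diet vehicle mouse 1 of 20. Western diet vehicle mouse 3 had the lowest value of 38 members and mouse 5 of 34.

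**Figure D2:**
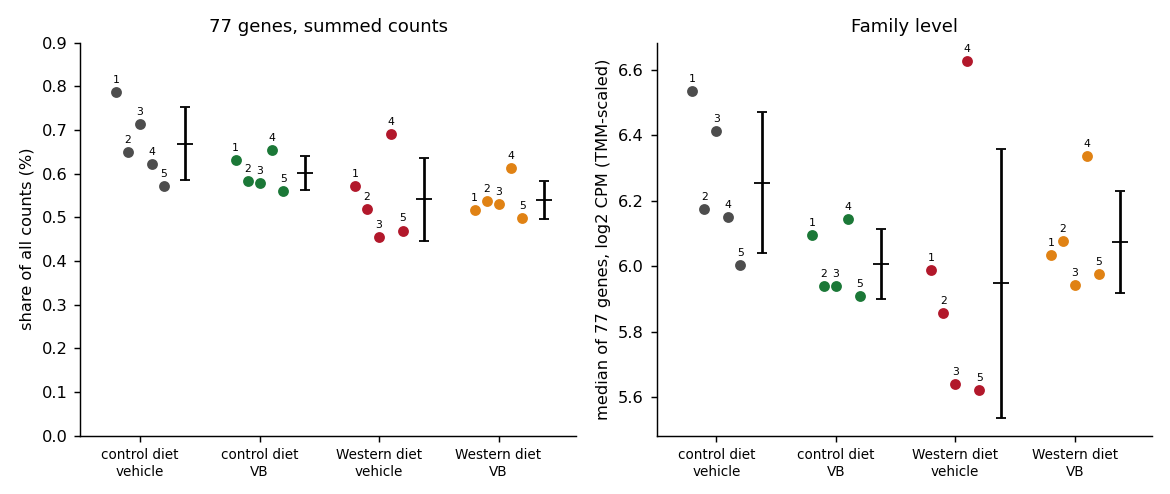
Share of all counts held by the 77 genes (left, %) and their median log2 CPM (right) in each mouse, with the mouse number beside each point and the mean ± SD of the 5 mice in black. Western diet vehicle mouse 4 stands at 6.63 on the right while the other 4 mice of its group lie between 5.62 and 5.99.

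The 2 subunits followed each other. In control diet vehicle mice the median log2 CPM was 6.25 ± 0.21 (SD, n = 5) for the large subunit and 6.27 ± 0.24 for the small, and in Western diet vehicle mice 5.93 ± 0.42 and 5.95 ± 0.41. Within groups, the median member had a standard deviation of 0.27 on the log2 scale. Once each mouse's family level was subtracted the median standard deviation was 0.10, and it was smaller than before for 74 of the 77 members. All members of a mouse share its library and its scaling. The median gene of the 12616 tested had a standard deviation of 0.26.

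In vehicle mice 6 of the 77 members fell on the Western diet and none rose. These were Rpl3, Rpl4, Rpl8 and Rplp0 of the large subunit and Rps9 and Rps4x of the small subunit. Of all 12616 genes tested in this comparison 16.5% were called, so 6 of 77 is below the background. The median member changed by -0.23 (log2, 14.6% lower), against 0.02 over all genes, and 73 of 77 had a negative value. The 4 exceptions were Rpl5 (0.15), Rps27l (0.08), Rps19 (0.03) and Rps4l (0.00), none called, of which Rps19 is named after its values were seen. At an unadjusted p under 0.05, 20 members were lower, against a background of 12.9% of genes lower by that rule.

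Rpl3, which helps shape the peptidyl transferase centre, moved furthest. Its CPM was 151, 113, 127, 127 and 108 in control diet vehicle mice and 84.1, 77.6, 77.4, 86.6 and 63.6 in Western diet vehicle mice. The 2 groups did not overlap, and mouse 4, high for most members, was near its group here. Rpl3 fell by 0.68 on the log2 scale (SE 0.09, adjusted p 2.01e-05), which is 37.8% lower.

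Rps9, a small subunit protein that binds early in assembly, had 163, 130, 140, 130 and 109 CPM in control diet vehicle mice. In Western diet vehicle mice it had 113, 99.9, 90.4, 124 and 79.0 CPM. The ranges overlapped through Western diet mice 1 and 4 and control diet mouse 5. The change was -0.41 (SE 0.11, adjusted p 0.0105).

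Rps4x, the X-linked form of the small subunit protein eS4, stood at 99.0, 77.7, 85.2, 78.4 and 69.3 CPM on the control diet and 67.0, 62.9, 55.0, 80.6 and 51.5 CPM on the Western diet in vehicle mice. Mouse 4 alone of the Western diet group reached into the control diet range. Rps4x fell by 0.37 (SE 0.11, adjusted p 0.0217).

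Rpl8, a large subunit protein near the peptidyl transferase centre with little shared sequence, had 117, 99.1, 108, 100.1 and 82.8 CPM on the control diet and 81.7, 72.2, 69.0, 103.5 and 65.7 CPM on the Western diet. Mouse 4 was again the one Western diet vehicle mouse inside the control range. Its change was -0.37 (SE 0.11, adjusted p 0.0193).

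Rpl4, which lines the exit tunnel of the nascent chain, had 212, 198, 213, 203 and 188 CPM on the control diet and 168, 164, 168, 205 and 144 CPM on the Western diet. It fell by 0.26 (SE 0.08, adjusted p 0.0272). Rplp0, the base of the stalk that recruits translation factors, had 282, 252, 268, 244 and 230 CPM against 224, 209, 208, 251 and 182 CPM, and fell by 0.25 (SE 0.08, adjusted p 0.0423). In both genes mouse 4 alone of the Western diet group lay inside the control range.

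These 6 genes lie on 5 chromosomes. In GRCm38 Rpl3 is at chr15:80077791-80091868 on the minus strand and Rpl8 at chr15:76904078-76906314 on the plus strand. Rps9 is at chr7:3703993-3706897, Rpl4 at chr9:64173375-64178666 and Rplp0 at chr5:115559467-115563727, all on the plus strand, and Rps4x at chrX:102184941-102189394 on the minus strand.

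**Figure D3:**
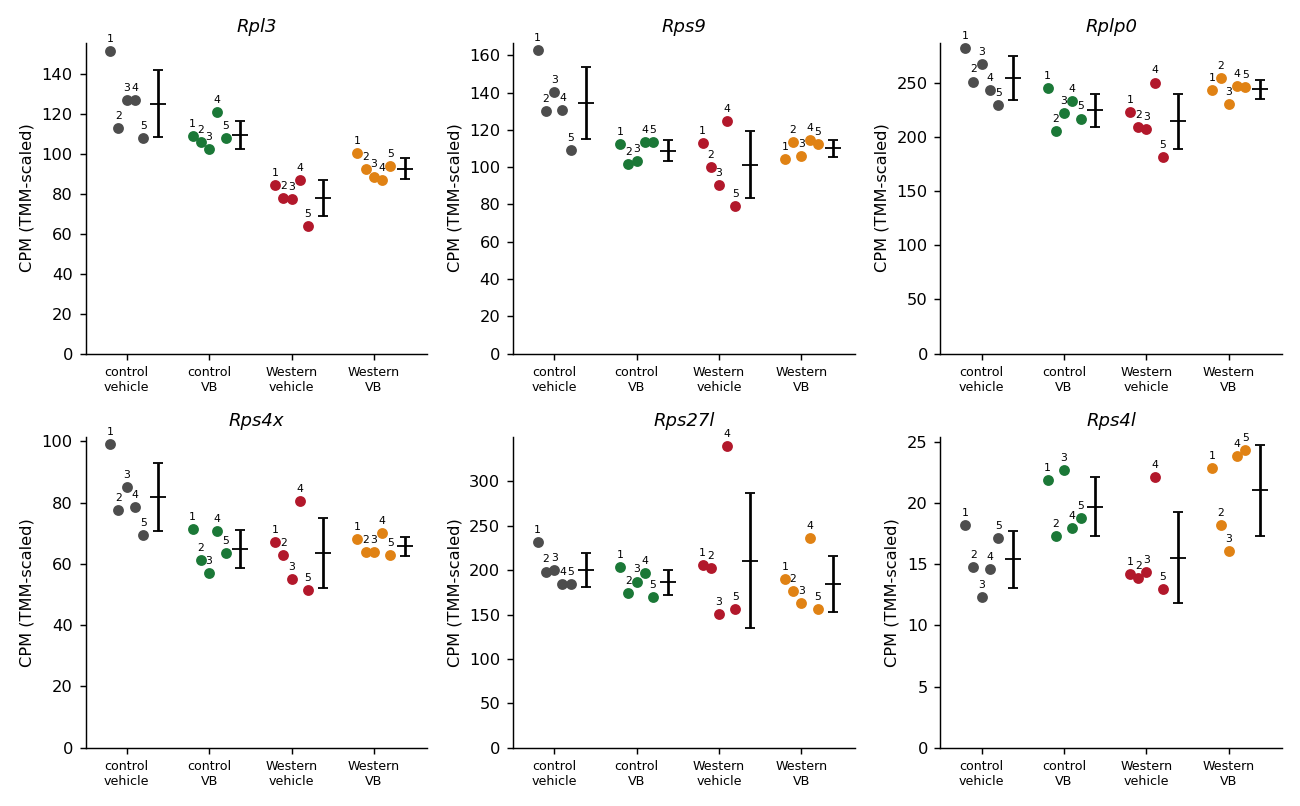
TMM-scaled CPM of 6 members in each mouse (points, with the mouse number) and the mean ± SD of each group of 5 in black, on axes that start at 0. Rpl3 separates the vehicle groups of both diets, while in the other called genes Western diet vehicle mouse 4 lies inside the control range, and it is highest of all for Rps27l at 340 CPM.

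The call count rested on single mice in both directions. Without Western diet vehicle mouse 4, 65 of 77 members were lower on the Western diet in vehicle mice, against a background of 18.9% of 12732 genes called in that fit, all 77 were negative and the median was -0.47 (27.9% lower). The 12 not called then were Rpl5, Rpl10, Rpl22, Rpl27, Rpl31, Rpl41, Rps4l, Rps19, Rps23, Rps25, Rps27 and Rps27l. Without control diet vehicle mouse 1, or without Western diet vehicle mouse 3 or 5, only Rpl3 and Rps9 were called. Rpl3 was called in 34 of the 35 alternatives run, and the exception was the clock covariate.

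Several other measures moved with the family in mouse 4. Its mitochondrially encoded genes held 4.62% of counts, against 1.99% to 3.33% in the other 19 mice, its TMM factor of 0.823 was the lowest, and its hepatocyte marker sum of 58317 CPM was the highest. Its mitochondrial ribosomal proteins had a median of 5.49 log2 CPM, also the highest. Their part in the result was not tested.

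Clock genes moved with the groups. Of 21 listed clock genes, 11 were higher and 6 lower on the Western diet in vehicle mice, where 16.5% of all genes were called. A score along their first principal component was -1.78 to -0.84 in control diet vehicle mice and 1.20 to 1.48 in Western diet vehicle mice. VB mice lay between, at -0.56 to 0.05 on the control diet and -0.25 to 0.72 on the Western diet. With the score as a covariate no member was called for the diet in vehicle mice and the median was 0.19, and 28 of all 12616 genes were called in that fit. The labels used here give no time of sampling, and the score separates the vehicle groups without overlap. On each diet it also separates VB mice from vehicle mice without overlap. Neither the diet in vehicle mice nor VB on either diet can therefore be told apart from the clock state. This holds for the difference of VB effects too.

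Among other cell types, the adipocyte list summed to 30.3 to 266 CPM in Western diet vehicle mice and 0.413 to 1.86 CPM in control diet vehicle mice. Cfd made up nearly all of that, at 30.1 to 265 CPM, while Adipoq and Plin1 stayed at or under 0.18 CPM and Lep was at 0 in both groups. Of 8 Kupffer cell and macrophage markers none was called, and their sum was 96.8 to 387 CPM against 157 to 210 CPM. In the same comparison, where 16.5% of all genes were called, 2 of 8 hepatocyte markers were lower. So were 1 of 7 of stellate cells and fibroblasts and 1 of 5 of cholangiocytes. One of the hepatocyte markers was Tat, tyrosine aminotransferase, at 430 to 877 CPM against 1727 to 3475 CPM. Of 6 endothelial markers 1 was higher, as were the single tested markers of neutrophils and of adipocytes (Cfd). Their part in the result was not tested.

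**Figure D4:**
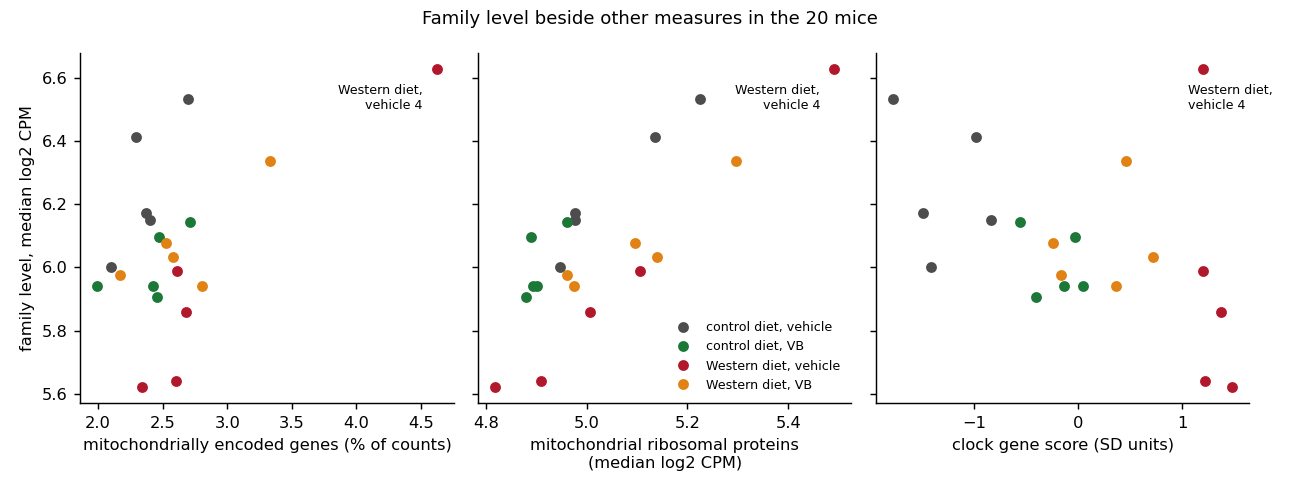
Family level (vertical axis, median log2 CPM of the 77 genes) in the 20 mice against the share of counts of mitochondrially encoded genes (left, %), the median log2 CPM of mitochondrial ribosomal proteins (middle) and the clock gene score (right, in SD units). Western diet vehicle mouse 4 stands at 4.62% on the left, and the vehicle groups of the 2 diets sit at opposite ends of the clock score.

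VB on the control diet went with lower values in nearly the whole family, by an amount that did not pass the test. Of 77 members 75 had a negative value, with a median of -0.23 (14.8% lower) against 0.00 over all genes. The 2 positive members were Rps4l (0.35) and Rpl5 (0.00). None was called by edgeR, DESeq2 or limma-voom, and the background was 0.151% of genes. At an unadjusted p under 0.05, 18 members were lower and 1 was higher, against a background of 5.06% of genes lower. With the clock covariate the median was -0.053.

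The smallest p-values among the lower members were those of Rps4x, Rpl4 and Rps9, which the diet also lowered in vehicle mice. Both comparisons share the control diet vehicle mice. Rps4x was at 71.2, 61.4, 57.1, 70.8 and 63.6 CPM with VB, with a change of -0.34 (SE 0.11, adjusted p 0.24). Rpl4 was at 184, 172, 164, 172 and 169 CPM with VB, below all vehicle mice, with a change of -0.23 (SE 0.08, adjusted p 0.267). Rpsa, the laminin receptor and small subunit protein, was at 186, 129, 158, 137 and 118 CPM with vehicle and 114, 107, 102, 124 and 111 CPM with VB (log2 change -0.39, SE 0.14, adjusted p 0.324).

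VB on the Western diet went with slightly higher values. Of 77 members 70 were positive, with a median of 0.10 (7.38% higher) against -0.02 over all genes. None was called by edgeR or limma-voom, DESeq2 called 1, Rps4l, and the background was 7.19% of genes. At an unadjusted p under 0.05 Rps4l, Rpl3 and Rplp0 were higher, 3 of 77 against a background of 9.46% of genes higher.

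Rpl3 had 84.1, 77.6, 77.4, 86.6 and 63.6 CPM with vehicle and 100.3, 92.2, 88.6, 86.9 and 94.0 CPM with VB on the Western diet. The groups did not overlap, although the lowest VB mouse and the highest vehicle mouse were nearly level. The change was 0.25 (SE 0.09, adjusted p 0.122). Rplp0 had 243, 255, 231, 248 and 247 CPM with VB, a change of 0.19 (SE 0.08, adjusted p 0.197).

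Without Western diet vehicle mouse 4, 14 members were higher with VB on the Western diet, all 77 were positive and the median was 0.31 (23.9% higher). The background of that fit was 9.62% of genes. The 14 included Rplp0 (0.25, SE 0.08, adjusted p 0.042), Rpl8 (0.30, SE 0.09, adjusted p 0.0343) and Rpl12. Without Western diet VB mouse 3, Rps4l alone was called, and with the clock covariate the median was -0.084.

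The difference between the effects of VB on the 2 diets was tested directly. It was positive for 75 of 77 members, with a median of 0.32 against -0.02 over all genes, and 1 member was called, against a background of 7.64% of genes. The 2 negative members were Rps27l (-0.09) and Rps19 (-0.02). Rpl3 was that member (0.44, SE 0.13, adjusted p 0.0414), with VB going with 12.7% less on the control diet and 18.7% more on the Western diet. At an unadjusted p under 0.05 13 members were higher, against a background of 9.63%.

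The members next to it were Rplp0 (0.37, SE 0.12, adjusted p 0.0565), Rpl8 (0.45, SE 0.15, adjusted p 0.075) and Rps9 (0.43, SE 0.15, adjusted p 0.0934). Without Western diet vehicle mouse 4, 49 members were called, all higher, with a median of 0.54 and a background of 13.4% of genes. Without control diet vehicle mouse 5, 4 were called (Rpl3, Rpl8, Rplp0 and Rps9), and without control diet VB mouse 1 Rplp0 was called in place of Rpl3. No member was called without control diet vehicle mouse 1, 3 or 4, control diet VB mouse 2, 3 or 5, Western diet vehicle mouse 2, 3 or 5, or Western diet VB mouse 1, 2, 3 or 5. With the clock covariate no member and 1 of all 12616 genes was called, and the median was -0.014. Rpl3 was called in 16 of 34 alternatives.

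In VB mice no member passed the test for the diet. Of 77 members 70 were positive with a median of 0.09 (6.68% higher), none was called by edgeR, DESeq2 or limma-voom, and the background was 6.44% of genes. With total-count scaling, which moved the median of all genes to -0.23, the median of the members was -0.15. The 1 member with an unadjusted p under 0.05 was Rpl3, which was lower, against a background of 10.9% of genes lower. It had 109, 106, 103, 121 and 108 CPM in control diet VB mice, all above the Western diet VB mice, and a change of -0.24 (SE 0.09, adjusted p 0.129).

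**Figure D5:**
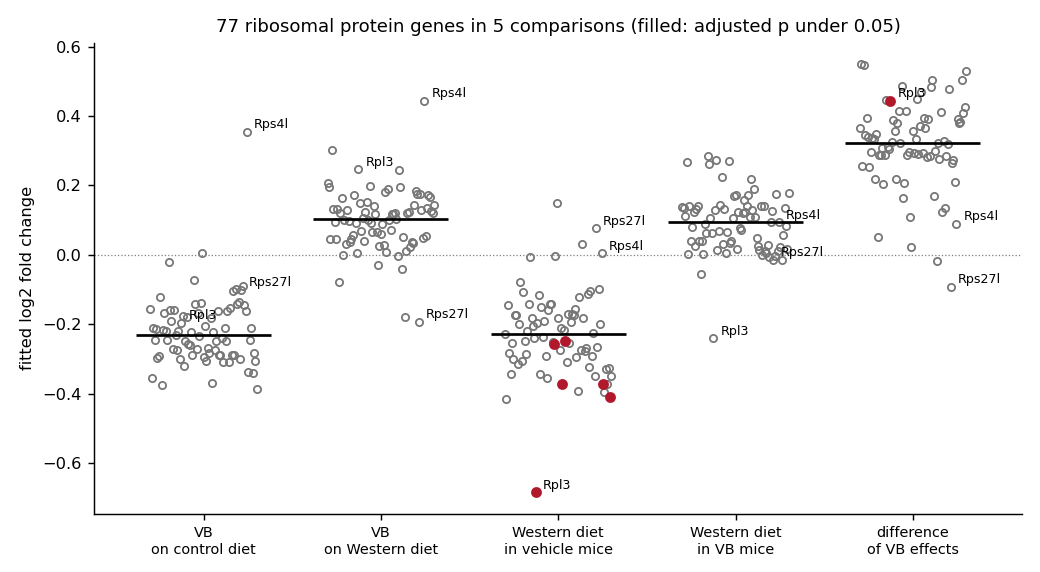
Fitted log2 fold changes of the 77 genes (points) in the 4 comparisons and in the difference of the VB effects, with the median as a black line and filled points for an adjusted p under 0.05. The cloud lies below 0 for VB on the control diet and for the Western diet in vehicle mice, and Rps4l lies apart from it in both VB comparisons.

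Rps4l and Rps27l are 2 members whose symbols end in l. Rps4l, an intronless copy of Rps4x at chr6:148354656-148355598 on the plus strand that is annotated as a pseudogene, had 18.2, 14.8, 12.3, 14.6 and 17.1 CPM in control diet vehicle mice and 21.9, 17.3, 22.7, 17.9 and 18.7 CPM in control diet VB mice. On the Western diet it had 14.2, 13.9, 14.4, 22.1 and 13 CPM with vehicle and 22.9, 18.2, 16, 23.8 and 24.3 CPM with VB. VB mice were mostly higher on both diets, with mouse 4 the exception among Western diet vehicle mice.

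The log2 change of Rps4l with VB was 0.44 on the Western diet (SE 0.15, adjusted p 0.0739) and 0.35 on the control diet (SE 0.15, adjusted p 0.381). In DESeq2 it was called on the Western diet. Without Western diet vehicle mouse 4 the change there was 0.60 (SE 0.13, adjusted p 0.00541). Its namesake Rps4x changed by 0.05 and -0.34 in the same comparisons.

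Rps27l had 232, 198, 200, 185 and 184 CPM in control diet vehicle mice and 206, 202, 150.0, 340 and 156 CPM in Western diet vehicle mice. Mouse 4 was far above the rest. VB mice had 203, 174, 187, 197 and 170 CPM on the control diet and 190, 177, 162, 236 and 156 CPM on the Western diet. Its changes were 0.08 for the diet in vehicle mice and -0.19 for VB on the Western diet (SE 0.16 in both), where the family medians were -0.23 and 0.10, and its namesake Rps27 changed by -0.23 and 0.18. Without Western diet vehicle mouse 4 the changes of Rps27l were -0.17 and 0.05, so their directions rest on that mouse.

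Relative to the family level, Rps27l was 1.23 to 1.52 log2 units above it in control diet vehicle mice and 1.59 to 1.80 above it in Western diet vehicle mice, without overlap. The same held for Rpl19, Rpl26, Rpl41 and Rps19, named after the values of all members were seen. How many members would separate in this way by chance was not tested. Rpl3 was 0.58 to 0.84 above the family level in control diet vehicle mice and between -0.19 and 0.64 in Western diet vehicle mice, where mouse 4 gave the lowest value. These are descriptions, since the family level contains the members.

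Among the other members with a special role, the stalk proteins Rplp1 and Rplp2 had changes of -0.31 and -0.17 with the diet in vehicle mice, neither called. Rps6 fell short of the threshold in that comparison (-0.33, SE 0.11, adjusted p 0.0542). Rps27a, made as a fusion with ubiquitin, changed by -0.35 (SE 0.14, adjusted p 0.0959). Rpl5 and Rpl11, which bind MDM2 with 5S ribosomal RNA, changed by 0.15 and -0.14 (adjusted p 0.693 and 0.598). Rpl5 had an SE of 0.20, a level of 5.88 CPM per kb and 93.8% shared words. Whether its level or shared sequence bears on its SE was not tested.

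Some ribosomal proteins and relatives have symbols outside the pattern. Of 9 tested, Rpl22l1, a paralog of Rpl22, and Rps3a1, the small subunit protein eS1, fell with the diet in vehicle mice, by 0.76 (SE 0.17, adjusted p 0.00259) and 0.37 (SE 0.11, adjusted p 0.0225). The background there was 16.5% of genes. Rpl7l1, a paralog of Rpl7, was higher with VB on the Western diet (0.31, SE 0.08, adjusted p 0.0264), against a background of 7.19%. Rpl22l1 and Rpl7l1 were the 2 called in the difference of VB effects, at 0.76 and 0.47, in 15 and 32 of 34 alternatives. The background of the difference was 7.64% of genes. Fau and Rack1 were called in none of the comparisons.

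Larp1, which binds the TOP tract, went with the diet and VB in the vehicle and Western diet mice. Its mean was 112 ± 7.36 CPM (SD, n = 5) in control diet vehicle mice, 85.4 ± 4.50 in Western diet vehicle mice, 106 ± 5.84 in control diet VB mice and 108 ± 5.50 in Western diet VB mice. The Western diet vehicle range of 79.5 to 89.9 CPM lay below all other mice. Larp1 fell with the diet in vehicle mice by 0.39 (SE 0.07, adjusted p 0.000351) and rose with VB on the Western diet by 0.34 (SE 0.07, adjusted p 0.00353). The difference of VB effects was 0.42 (SE 0.10, adjusted p 0.00976).

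In the TOR and TOP list of 32 tested genes, 3 were higher and 2 lower with the diet in vehicle mice, among them Deptor (0.24) and Rheb (0.22), called in 26 and 18 of 35 alternatives, and 16.5% of all genes were called there. With VB on the Western diet 2 were higher and 1 lower, where 7.19% of all genes were called. Lamtor1 was at 0.30 and Mtor at -0.39, called in 22 and 18 of 35 alternatives. In the difference 2 were higher, against 7.64% of all genes called. With the diet in VB mice 2 were lower, against 6.44%. Both counts are near the share over all genes. Of 12 genes in the translation elongation list 1 was called, Eef1a1. That list also holds genes that are not elongation factors, such as Tpt1, Naca and Nap1l1. Eef1a1, whose messenger RNA also carries a TOP tract, fell with the diet in vehicle mice by 0.27 (SE 0.08, adjusted p 0.0253). Of 35 initiation factor genes 2 fell in that comparison, Eif1ax (-0.29) and Eif5 (-0.22), where 16.5% of all genes were called. With the diet in VB mice 2 rose, against a background of 6.44% of genes. These were Eif2b4 (0.25) and Eif4e (0.24), called in 12 and 20 of 35 alternatives.

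Of ribosome biogenesis genes, which make and process ribosomal RNA, 57 were tested. With the diet in vehicle mice 2 were higher and 1 lower, against 16.5% of all genes called. There Nop56, a core protein of box C/D snoRNPs, fell by 0.51 (SE 0.12, adjusted p 0.00386), while Rrp9 (0.67) and Nmd3 (0.30, called in 17 of 35 alternatives) rose. With VB on the Western diet Nop56 (0.52) and Bysl (0.52), a small subunit assembly factor, rose, against 7.19% of all genes called. In the difference of VB effects 4 were higher and 1, Nmd3, lower, against 7.64% of all genes called. With the diet in VB mice 3 were higher and none lower, against 6.44%. The 1 listed small nucleolar RNA host gene in the table was called in none, and of 20 tested named ribosomal protein pseudogenes none was called, with a median of -0.20 for the diet in vehicle mice.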

How the data were processed

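Messenger RNA was sequenced from 20 livers, each deposited as 2 lane files, so the table holds 40 columns of counts. In the column names all control diet libraries are numbered before all Western diet libraries and are named in another style. Within each diet all vehicle libraries are numbered before all VB libraries. What this reflects is not said, and anything that went with that order cannot be told apart from the diet or from VB. The values are raw read counts per gene as the authors deposited them in 1 table of 32544 gene symbols. The submitters' processing notes name the build GRCm38. How reads were aligned and counted, with which strand setting, and what became of reads that fit several genes is not given in the sources used here. The library kit was Illumina TruSeq RNA, per the labels' protocols. The 2 lanes of a mouse were summed after a chi-square comparison of lanes gave 1.33 to 1.49 per degree of freedom, against at least 17.7 between mice of a group. One lane file of Western diet VB mouse 1 is labelled VB in its title and vehicle in its treatment field, and it was kept with the VB mice by its title. The labels number the livers within a group, and each number was taken as 1 mouse. They do not say how the livers were sampled further, so the p-values measure only the spread between these samples.

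Genes were filtered with filterByExpr (minimum count 10, minimum total 15), which kept 12616 genes and 99.95% of counts. They were scaled with the trimmed mean of M-values (TMM) and tested with edgeR's quasi-likelihood test (edgeR 4.0.16, R 4.3.3) in 1 model with the 4 groups as terms. P-values were adjusted by Benjamini-Hochberg over all 12616 genes, and a gene was called at an adjusted p under 0.05. DESeq2 1.42.0, limma-voom (limma 3.58.1), other scalings, other filters, lanes taken singly, a covariate for clock genes, added pseudogene counts, a replicate block and leaving out each mouse were alternatives. Standard errors are log2 change divided by the square root of the F statistic. Log2 CPM used a prior count of 2. Levels per kb and shared 50-base words used transcripts of GENCODE mouse release 21. The shared words are those found in transcripts of any other annotated gene. Promoter windows came from RefSeq. The fit was tested on simulated counts.

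Named genes were the stalk proteins, Rpsa, Rps6, Rps27a, Rpl5 and Rpl11, members whose symbol ends in l with their namesakes, the 5 called members of smallest p in each direction and comparison, the 5 highest and 5 lowest members per kb, and up to 3 called genes for each other list and comparison. The members, the lists and the tests were chosen with earlier results of these data known. Not every gene that this rule names is reported here.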

Additional observations from a re-analysis of the deposited data

Results flagged for a closer look

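Of 112 groups of 5 mice checked for the family share, the family level and 26 named members, 5 had 1 mouse far from the other 4. Chance alone flags about 1 in 20 groups. The 112 groups reuse the same mice and members that move together, so 5 of 112 cannot be weighed against that rate. Every flag fell on the highest value of a mouse numbered 4 on the Western diet. No group was flagged for the family share or the family level, the Western diet vehicle group among them. Western diet vehicle mouse 4 stood above its group for Rpl39, a small large-subunit protein, at 44.4 CPM with the next mouse at 25.3 CPM. The same mouse was high for Rps20 at 50.9 CPM (next 29.3) and for Rps4l at 22.1 CPM (next 14.4). Western diet VB mouse 4 stood above its group for Rps2 at 321 CPM (next 264) and for Rpl39 at 34.7 CPM (next 28.4). Rpl3 was picked out because the effect of VB differed between diets by 0.44 on the log2 scale in the test of the difference itself.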

How the results depend on the processing

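Direction and call counts depended most on the scaling, on the clock covariate and on single mice. Counts of members called moved as follows. For VB on the Western diet (0), DESeq2 gave 1. For the diet in vehicle mice (6), total-count scaling gave 27, a fit of only the groups compared 1, and the clock covariate 0. For the diet in VB mice (0), total-count scaling gave 3 and only the groups compared 1. For the difference of VB effects (1), upper-quartile scaling, limma-voom and a minimum count of 50 gave 2, DESeq2 3, and total-count scaling, no filter, lane 2 only and the clock covariate 0. Median changes reversed with the clock covariate for VB on the Western diet (-0.084), the diet in vehicle mice (0.19) and the difference (-0.014), and with total-count scaling for the diet in VB mice (-0.15), where all genes shifted by -0.23. Total-count scaling moved the share of higher among all called genes from 54% to 42.7% for the diet in vehicle mice, from 50.1% to 6.88% for the diet in VB mice, from 46.3% to 17.6% for VB on the Western diet, from 36.8% to 65.8% for VB on the control diet and from 47.5% to 16.9% for the difference. With the clock covariate Rplp0 (0.059), Rps9 (0.091), Rps3a1 (0.022), Eif1ax (0.14) and Cdkn1a (0.35) reversed for the diet in vehicle mice. The covariate moved the medians for VB on the control diet to -0.053 and for the diet in VB mice to 0.16. The cause was not tested. Without the abundant Mup genes the share of counts was 0.754% in control diet vehicle, 0.651% in control diet VB, 0.609% in Western diet vehicle and 0.677% in Western diet VB mice.

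Leaving out each mouse gave medians of 0.02 to 0.31 for VB on the Western diet, -0.28 to -0.15 for VB on the control diet, -0.47 to -0.14 for the diet in vehicle mice, 0.03 to 0.13 for the diet in VB mice and 0.24 to 0.54 for the difference. Counts called ranged from 0 to 14, 0 to 0, 2 to 65, 0 to 0 and 0 to 49 in that order. Group mean shares were 0.639 to 0.693% (control diet vehicle), 0.589 to 0.612% (control diet VB), 0.504 to 0.563% (Western diet vehicle) and 0.521 to 0.549% (Western diet VB).

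With a replicate block on mouse number, 14 members were called for the diet in vehicle mice and 4 for the difference, with 2312 and 1146 of all genes called. Pairing was not assumed, since the labels number the livers within a group and do not link the groups. The correlations below cannot decide whether same-numbered mice were paired. Deviations of same-numbered mice correlated at -0.07 to 0.38 (median 0.04), over 0.1 in 7 of 30 pairs, and those of other mice at -0.32 to 0.22 (median -0.01), over 0.1 in 7 of 120. As a hint from the data, 10 of 20 mice correlated best with their own number in another group.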

Other observations

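Among 15 listed p53 targets, 4 were higher and 3 lower with the Western diet in vehicle mice, where 16.5% of all genes were called. Cdkn1a, an inhibitor of cyclin-dependent kinases, fell by 1.69 on the log2 scale (SE 0.37, adjusted p 0.00384) and Trp53inp1 fell by 1.32 (SE 0.27, adjusted p 0.002), while Fas rose by 0.83 (SE 0.13). With VB on the Western diet 1 was higher and 2 lower, against 7.19% of all genes called. There Trp53inp1 rose by 1.16 (SE 0.27, adjusted p 0.0127) and Fas fell by 0.45 (SE 0.13, adjusted p 0.037). Eda2r, at a low mean of 0.66 CPM with vehicle and 0.16 CPM with VB, fell by 2.07 (SE 0.57, adjusted p 0.028). Rps27l, known as a target of p53, changed by 0.08 and -0.19 in these comparisons, or by -0.17 and 0.05 without Western diet vehicle mouse 4, and was not called.

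The ribosome of the mitochondrion has its own set of proteins, encoded in the nucleus. Of 78 mitochondrial ribosomal protein genes tested, 1 was higher and 1 lower with the diet in vehicle mice, Mrpl45 at 0.61 and Mrps27 at -0.39. The background there was 16.5% of genes, and the median was 0.06 where the cytosolic median was -0.23. With the diet in VB mice 4 were higher, among them Mrps18a at 0.35, against a background of 6.44% of genes. Their median was 0.19, where the cytosolic median was 0.09. With VB none was called on the control diet (median -0.13, 4 of 78 positive, cytosolic -0.23). On the Western diet 1 was higher and 1 lower with VB, against a background of 7.19% of genes (median -0.02, cytosolic 0.10). In the difference of VB effects the median was 0.12, with 66 of 78 positive, where the cytosolic median was 0.32. The 13 mitochondrially encoded genes were all positive with the diet in vehicle mice, with a median of 0.43, and mt-Nd5 was called at 0.66 (SE 0.19, adjusted p 0.0191). Without Western diet vehicle mouse 4 the change of mt-Nd5 was 0.33, the lowest of the values that leaving out each mouse gave. With the diet in VB mice all 13 genes were also positive, with a median of 0.44, and none was called, against a background of 6.44% of genes.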
